A study of Mus musculus with 8 samples.

Results

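The homing and survival genes of naive T cells described here are Ccr7, S1pr1, Klf2, Il7r, Cxcr4, Ccr9 and Cxcr3. They were chosen by name and not by a cut on any measured value, but with earlier results of these data known. Peaks of N6-methyladenosine (m6A), an adenosine that carries a methyl group, were counted for a gene when the deposited peak list gave its symbol. All 7 genes were found, with 12 of the 23368 peaks of the PTC list and 13 of the 29586 peaks of the control list. The lists together name 12413 genes.

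Mouse primary T cells were treated for 24 h with PTC, an agent named but not described in the labels, or were kept as controls in the same serum-containing medium. Total RNA from 2 samples of each condition was immunoprecipitated for m6A, and 2 samples of each condition, with other numbers, were sequenced as input. Whether an input and an immunoprecipitate came from the same RNA is not stated. The labels give no strain, age, sex, T cell subset or activation, and leave unsaid which animals or cultures the samples came from. The authors deposited 1 peak list per condition, so that no value has a replicate error and no test between conditions was possible.

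A naive T cell circulates between blood and lymphoid organs. Ccr7, the receptor for the chemokines Ccl19 and Ccl21, brings it into lymph nodes, and S1pr1, a receptor for sphingosine 1-phosphate, lets it leave again. Klf2 is a zinc finger transcription factor, not a receptor, that maintains S1pr1 expression, and Il7r, the alpha chain of the interleukin 7 receptor, carries a survival signal. Cxcr4 binds Cxcl12, Ccr9 binds Ccl25 of thymus and small intestine, and Cxcr3, typical of activated and memory cells, binds chemokines induced by interferon. m6A is placed on messenger RNA by the Mettl3 and Mettl14 methyltransferase, mostly near stop codons, in 3′ UTRs and in long exons, within the 5-base consensus DRACH, in which D stands for any base but C, R for a purine and H for any base but G. GGACT is a form of this consensus that is methylated especially often.

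The spliced transcripts of the 7 genes held 11 GGACT sites, and all 11 lay inside a peak, against 42.6% of those in the main transcripts of all protein-coding genes in both lists. Of these sites, 10 were inside a peak in both lists, and the one of Ccr9 was inside a peak of the control list only. Peaks of either list covered 61.4% of the nucleotides of the 7 transcripts, against 37% for all those genes. A site is more likely to lie inside a peak where peaks cover more of the transcript. The windows below carry 8 nt on each side of the site and are read 5′ to 3′ from the GENCODE M21 transcripts, which are on GRCm38, with the GGACT site in capitals. They are shown because they are the complete set of these sites in the 7 transcripts.
Ccr7, first coding site (chr11:99145966-99145986, minus strand): accacggtGGACTacaccctg
Ccr7, second coding site (chr11:99145057-99145077, minus strand): ctcttcaaGGACTtgggctgc
Ccr7, 3′ UTR site (chr11:99144930-99144950, minus strand): ccctgcccGGACTacaaggac
S1pr1, coding site (chr3:115712246-115712266, minus strand): cttggtcaGGACTcgaagccg
Klf2, coding site (chr8:72319477-72319497, plus strand): aacgtgttGGACTtcatcctc
Il7r, coding site (chr15:9508311-9508331, minus strand): agtttcctGGACTgccagatt
Il7r, 3′ UTR site (chr15:9506430-9506450, minus strand): attctcagGGACTgcatgcaa
Cxcr4, 3′ UTR site (chr1:128588566-128588586, minus strand): tgtgtgtaGGACTgtagaact
Ccr9, 3′ UTR site (chr9:123781199-123781219, plus strand): agcctttgGGACTtcctcagg
Cxcr3, coding site (chrX:101733001-101733021, minus strand): gatgcctcGGACTttgccttt
Cxcr3, 3′ UTR site (chrX:101731934-101731954, minus strand): gtaattctGGACTggaactgt

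Of the 11 sites, 6 were in coding sequence and 5 in the 3′ UTR, and 3 lay within 200 nt of the end of the stop codon. The central A of the Cxcr3 3′ UTR site was 7 nt beyond the stop codon, and the nearest 2 of Ccr7 were at 18 and at -109 nt from it, a negative value being upstream. A peak is far wider than a site, so that it does not say which adenosine within it is methylated.

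All 7 genes were listed in both conditions, as were 79.2% of the 12413 genes named by either list, while 8.24% were in the PTC list only and 12.5% in the control list only. With peaks of a −log10 FDR of at least 5 alone, 6 of the 7 genes remained in both lists and Ccr9 in neither. When the fold had to reach 4, 5 were in both, Ccr7 was in the PTC list only and Cxcr4 in the control list only. The FDR cut left 13982 PTC and 15805 control peaks in the whole lists, and the fold cut 10556 and 13327. Shares of all genes at these cuts are not given here, so that the 79.2% is no background for them. Each peak carries the authors' own fold enrichment, taken here as immunoprecipitate over input on a linear scale, and their p-value, printed as −log10 p. These values were used to rank peaks within a list, and values of the 2 lists are set side by side without a statement of change, since depth and scaling may differ between lists. Read depth per sample is unknown.

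By the strongest peak of each gene, the order in the PTC list was Ccr7 (−log10 p 2390), Klf2 (502), S1pr1 (384), Il7r (122), Cxcr4 (98.8), Cxcr3 (53) and Ccr9 (5.01). In the control list it was Ccr7 (971), Klf2 (310), S1pr1 (224), Cxcr4 (69.1), Il7r (48.2), Cxcr3 (33.8) and Ccr9 (5.38). The 2 orders differed only in the places of Il7r and Cxcr4, and no spread between samples is available to say which neighbours differ. The median of these 7 strongest values was 122 in the PTC list and 69.1 in the control list, against medians of 14.8 and 13.05 over the strongest peaks of all listed genes.

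**Figure D1:**
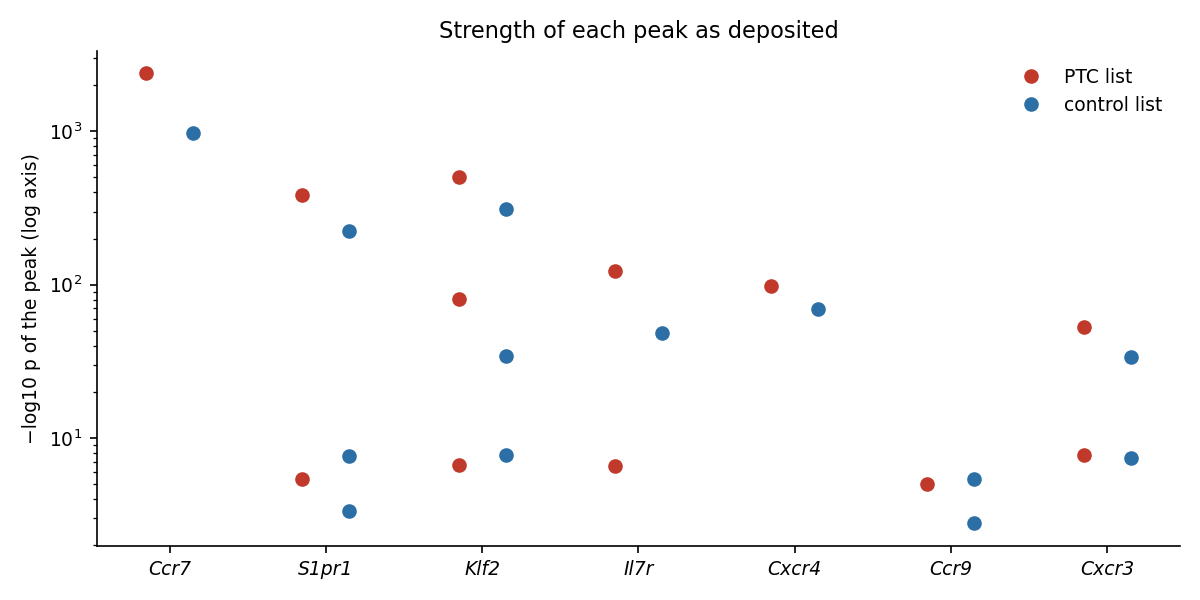
Strength of every peak of the 7 genes: the vertical axis is the deposited −log10 p on a log axis, and each point is 1 peak of the PTC list (red, left) or the control list (blue, right). Ccr7 stands highest in both lists, at 2390 and 971, and the peaks of Ccr9 lie between 2.79 and 5.38.

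The strength of a peak and its fold enrichment ranked the genes differently. In the PTC list the strongest peak of Il7r had the highest fold of the 7, at 7.23, and that of Klf2 the lowest, at 3.25. In the control list the strongest peak of Ccr9 had the highest, at 13.5, and that of Ccr7 the lowest, at 3.34. Thus the gene with the weakest p-values had a fold in the upper part of both lists, at percentile 71.5 of the PTC list and 93.8 of the control list. A p-value of this kind also depends on how many reads a transcript yields, and no expression level is available here to set beside it.

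**Figure D2:**
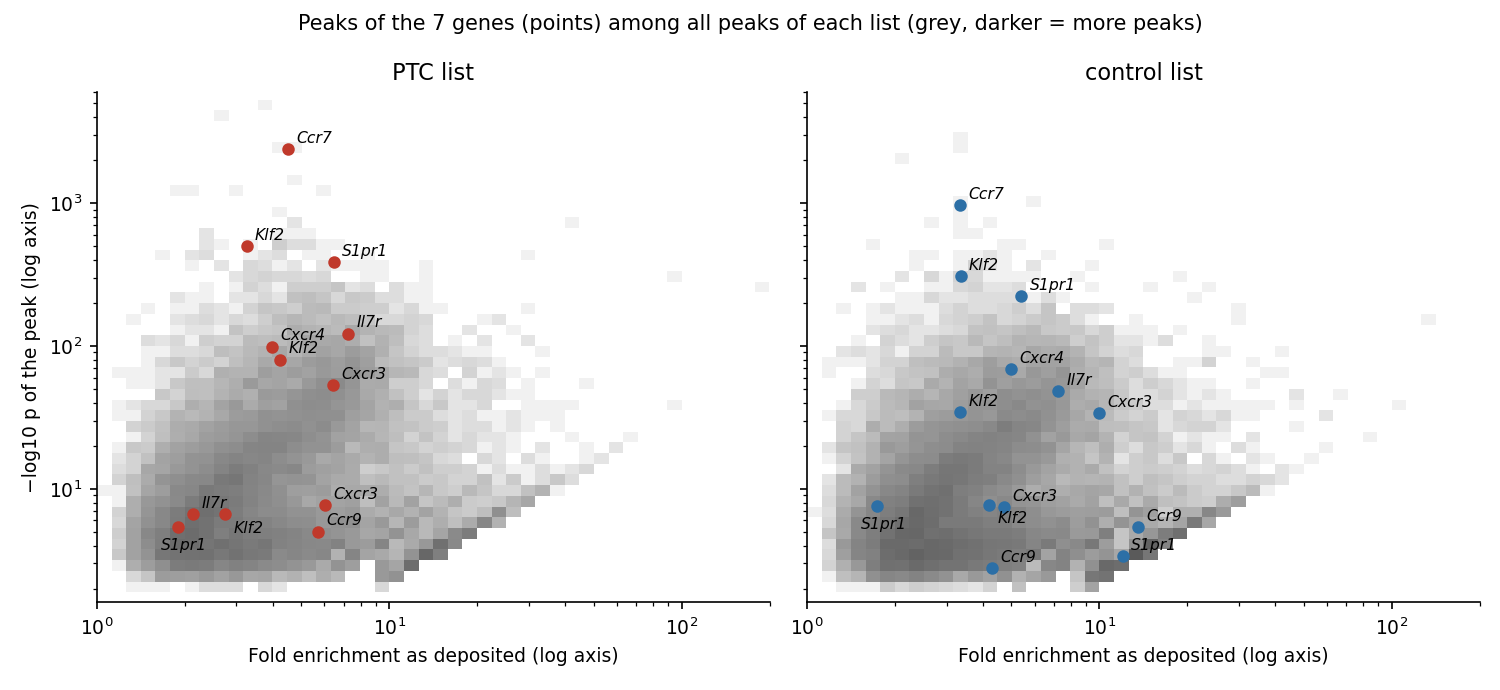
Deposited −log10 p (vertical, log axis) against deposited fold enrichment (horizontal, log axis) for the peaks of the 7 genes (points) among all peaks of the PTC list (left) and the control list (right) with a listed p-value, drawn as grey bins. The Ccr7 peak lies near the top of both lists at a middling fold of 4.5 and 3.34, while the control peaks of Ccr9 at fold 13.5 and of S1pr1 at fold 12 lie along the lower right edge.

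Ccr7 (ENSMUSG00000037944) held a single peak in each list, among the strongest of the experiment. The PTC peak (chr11:99144196-99149053, minus strand) had a fold of 4.5 and ranked 4 of 23368 by p-value, and the control peak (chr11:99144286-99149053) had a fold of 3.34 and ranked 5 of 29586. Both began at the same base, in the second of the 3 exons, and ran through the stop codon. The PTC peak ended with the annotated transcript and the control peak 90 nt before that. They covered 93.9% of the transcript in the PTC list and 89.4% in the control list, including 96.4% of the coding sequence in each. All 3 GGACT sites of the transcript were inside both peaks.

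S1pr1 (ENSMUSG00000045092) was covered over most of its length, by 2 PTC peaks and 3 control peaks. The main PTC peak (chr3:115711060-115714982, minus strand) was 2329 nt wide along the exons, with a fold of 6.45 and a −log10 p of 384. The main control peak (chr3:115710940-115714744) was 2211 nt wide, with a fold of 5.4 and a −log10 p of 224. Both held the whole coding sequence of 1149 nt and the stop codon. The PTC peak extended 445 nt into the 5′ UTR and the control peak 207 nt, and the control list gave the 5′ UTR a separate peak of 180 nt that rested on weak evidence (−log10 p 3.36) despite a fold of 12. Of that small control peak, 150 nt were inside the main PTC peak. Each list also held a weak 3′ UTR peak, of 270 nt in the PTC list (fold 1.89) and of 210 nt in the control list (fold 1.74), and these shared 151 nt. The union of peaks covered 85.3% of the transcript in the PTC list and 85.4% in the control list.

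Klf2 (ENSMUSG00000055148) had 3 peaks in each list, and each peak had a partner in the other list. The first, over the start of the transcript (chr8:72319033-72319547, plus strand), had identical limits in both, with a fold of 4.22 in the PTC list and 3.33 in the control list. It held the start codon and the single GGACT site of the gene. The second spanned the stop codon and was among the strongest peaks of both lists, ranking 29 in the PTC list (−log10 p 502, fold 3.25, 536 nt) and 43 in the control list (310, 3.35, 596 nt). It held 12 DRACH sites in each list and no GGACT site. The third lay towards the end of the 3′ UTR, with 180 nt and a fold of 2.75 in the PTC list and 209 nt and 4.19 in the control list. Between the first and the second peak most of the coding sequence carried none, so that 30.1% of it was covered in the PTC list and 35.8% in the control list, while 79.9% and 83.9% of the 3′ UTR were covered in the PTC and control lists.

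Il7r (ENSMUSG00000003882) carried its main peak over the end of the message. The PTC peak (chr15:9506177-9510179, minus strand) was 2272 nt wide with a fold of 7.23, and the control peak (chr15:9506296-9510179) was 2153 nt wide with a fold of 7.24. Both began at the same base of the sixth of 8 exons and included the stop codon, and the PTC peak reached 119 nt further into the 3′ UTR. These peaks held 57 DRACH sites in the PTC list and 55 in the control list, the largest numbers among the 7 genes. The PTC list had a further peak at the 5′ end (chr15:9529732-9530086, fold 2.13, −log10 p 6.61) without a control partner, and it held no DRACH site on the main transcript. It joined 104 nt of the usual first exon with 46 nt of the first exon of another transcript, Il7r-203, which no single annotated messenger RNA holds together. A −log10 p of 6.61 stood below the median of the PTC list, 7.6.

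Cxcr4 (ENSMUSG00000045382) held 1 peak per list, over most of its message. The PTC peak (chr1:128588525-128592234, minus strand) and the control peak (chr1:128588495-128592204) had the same width of 1423 nt and were displaced by 30 nt. Their folds were 3.97 in the PTC list and 4.99 in the control list, and the −log10 p values were 98.8 and 69.1. The coding sequence of 1080 nt was covered to 100% by the PTC peak and to 99.5% by the control peak, and the 3′ UTR to 49.4% and 54%. The GGACT site lay 267 nt beyond the stop codon, inside both peaks.

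Ccr9 (ENSMUSG00000029530) was the exception among the 7. Its peaks were weak by p-value, none held the stop codon, and of its 5197 nt, the longest of the 7 transcripts, 2.91% were covered in the PTC list and 12.7% in the control list. Its single PTC peak (chr9:123781240-123781390, plus strand, 151 nt, fold 5.72, −log10 p 5.01) and a control peak (chr9:123781180-123781360, 181 nt, fold 4.3, −log10 p 2.79) shared 121 nt of the 3′ UTR. The control peak alone held the GGACT site, because the PTC peak began 60 nt further downstream. The second control peak lay in coding sequence (chr9:123779350-123779830, 481 nt) with a fold of 13.5 and a −log10 p of 5.38, and no PTC peak overlapped it. None of these 3 peaks reached a −log10 false discovery rate (FDR) of 5, so that the difference in coding sequence rests on a single weak peak.

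Cxcr3 (ENSMUSG00000050232) had 2 peaks in each list, separated by a gap within the coding sequence. The peak over the stop codon (chrX:101731595-101732370 in the PTC list, minus strand) had a fold of 6.4 and a −log10 p of 53, and the control peak (chrX:101731595-101732400) had 9.98 and 33.8. The upstream PTC peak (chrX:101732519-101734239) was 717 nt wide with a fold of 6.02 and a −log10 p of 7.72. Its control partner (chrX:101732579-101734120) was 538 nt wide with 4.73 and 7.41, and lay wholly within it. Each of the 4 peaks held 1 GGACT site. Together the peaks covered 86.3% of the transcript in the PTC list and 77.6% in the control list.

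**Figure D3:**
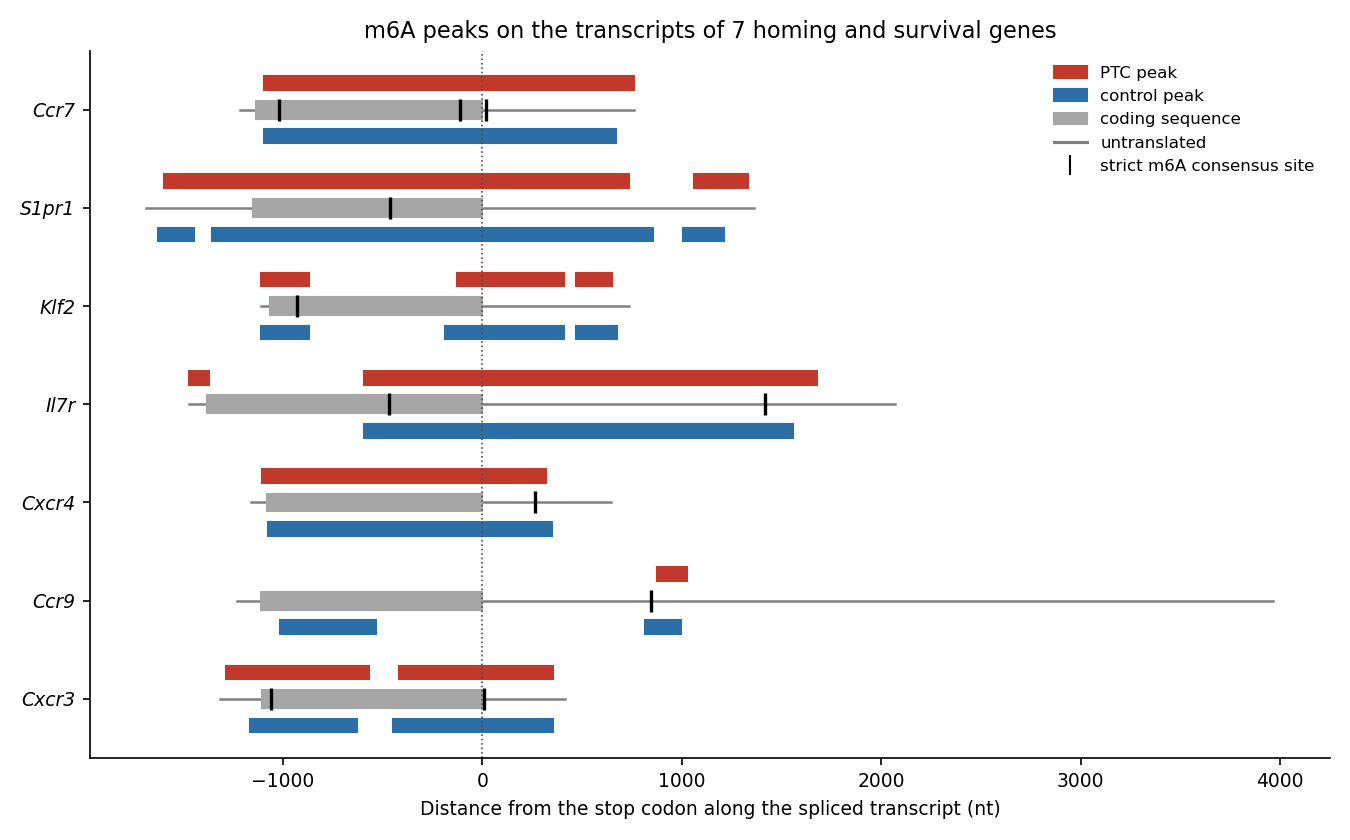
Peaks of the PTC list (red, above each transcript) and of the control list (blue, below) along the spliced transcripts of the 7 genes, with distance from the end of the stop codon in nt on the horizontal axis; grey boxes are coding sequence, thin lines untranslated regions and black ticks the 11 GGACT sites. The peaks of Ccr7, S1pr1, Klf2, Il7r, Cxcr4 and Cxcr3 cross the stop codon in both lists and those of Ccr9 do not.

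A peak over the stop codon was present in both lists for 6 of the 7 genes. Over protein-coding genes it was present in 55.6% of those in the PTC list, in 54.2% of those in the control list, and in both lists for 48.8% of those listed in both. The members' stop codon peaks were wide, from 536 nt for Klf2 to 2329 nt for S1pr1 in the PTC list, against a median of 270 nt over all PTC peaks and 268 nt over all control peaks. A wide peak is more likely to include a stop codon. Among peaks of 500 nt or more, 6 of the members' 7 held one in each list, against 50.5% of such PTC peaks and 47.2% of such control peaks of protein-coding genes. This floor does not make the widths equal. The stop codon peaks of Ccr7, S1pr1, Il7r and Cxcr4 were 1423 to 2329 nt wide, at percentiles from 96 to 99.2 of their lists by width.

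By midpoint, 5 of 12 PTC peaks and 5 of 13 control peaks of the 7 genes fell in the 3′ UTR, against 49.7% of PTC peaks and 46.1% of control peaks of all protein-coding genes. Midpoints within 200 nt of a stop codon were 3 of 12 in the PTC list and 2 of 13 in the control list, against 20.7% and 15.6%. These shares are near those of all peaks. The midpoints of the main S1pr1, Il7r and Cxcr4 peaks lay more than 200 nt from the stop codon that the same peaks hold.

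Exon structure, which the choice of genes did not use, was alike in 5 of the 7 genes. In Ccr7, S1pr1, Cxcr4, Ccr9 and Cxcr3, which encode G protein-coupled receptors, between 94.7% and 100% of the coding sequence is in the last exon, against 36.5% in Il7r and 16.5% in Klf2. Midpoints lay in the last exon for 10 of 12 PTC peaks and 11 of 13 control peaks, against 70.1% of all PTC peaks and 65.7% of all control peaks. Of the bases of the members' peaks, 90.7% in the PTC list and 94% in the control list were in the last exon, against 71.6% and 68.9% of those of all peaks. The last exon makes up between 87.1% and 97.3% of the transcript in the 5 receptor genes, 72.6% in Il7r and 49.4% in Klf2. A peak placed anywhere in those 5 transcripts would lie mostly in the last exon, so that these shares do not describe a preference of the peaks. In Ccr7, S1pr1, Cxcr4 and Cxcr3 between 83.9% and 100% of the coding sequence was covered in the 2 lists, while Ccr9, with the same structure, had no coding sequence covered in the PTC list and 43.3% in the control list.

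**Figure D4:**
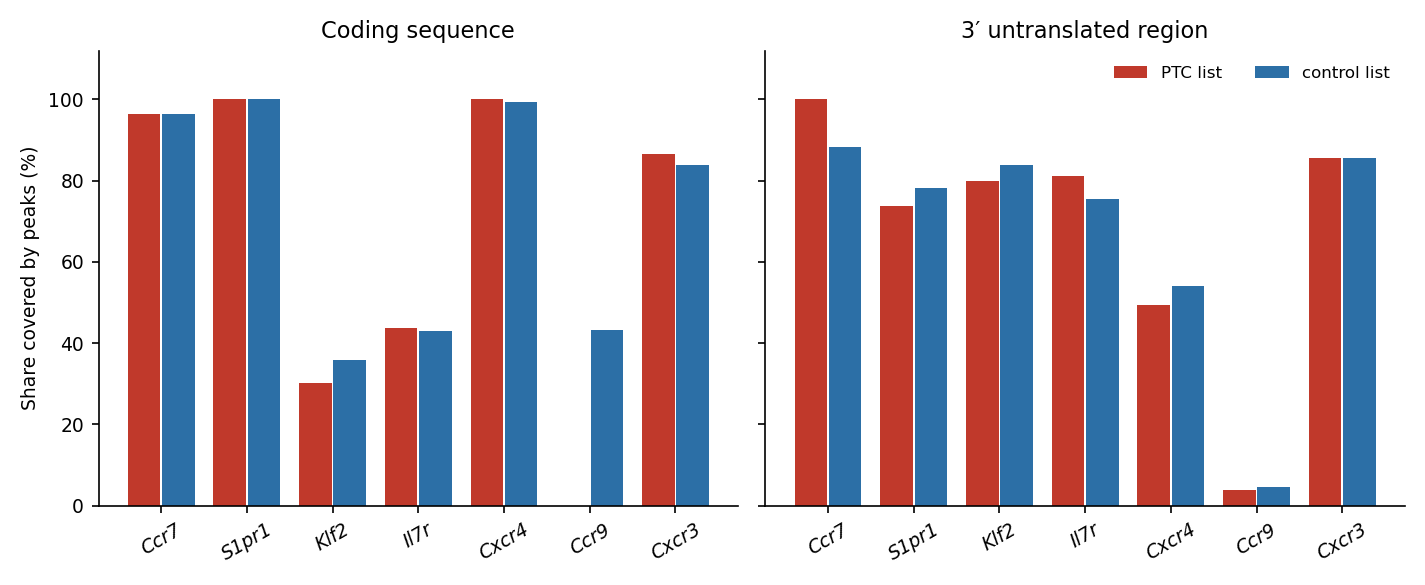
Share of the coding sequence (left) and of the 3′ UTR (right) of each gene that peaks covered, in percent, for the PTC list (red) and the control list (blue). Coding sequence was covered to 83.9% or more in Ccr7, S1pr1, Cxcr4 and Cxcr3 and to between 30.1% and 43.8% in Klf2 and Il7r, and the 3′ UTR of Ccr9 to 3.81% and 4.56%.

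Peaks holding GGACT numbered 7 of 12 in the PTC list and 8 of 13 in the control list, against 38.4% and 34.9% of the peaks of all protein-coding genes. Width enters this share too. Per length, the transcripts of the 7 genes held 0.936 GGACT sites per kilobase inside peaks and 0 in the 7390 nt outside, against 1.25 inside and 0.984 outside for the 8438 protein-coding genes in both lists. Thus GGACT was not denser in the members' peaks than in those of other genes, although no site of the 7 transcripts lay outside peaks. DRACH sites were about as dense inside as outside, with 1.91 and 1.98 per 100 nt in the 7 genes, against 2.13 and 1.99 over all those genes. Peaks covered 61.4% of the nucleotides of the 7 transcripts, against 37% of those of all those genes.

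Nearly every peak of the 7 genes recurred in the other list. A peak of the other list overlapped 11 of 12 PTC peaks (91.7%, exact Clopper-Pearson 95% interval 61.5 to 99.8%) and 12 of 13 control peaks (92.3%, 64 to 99.8%), against 78.8% of all PTC peaks and 60.2% of all control peaks. The intervals cover counting error only, and peaks of 1 gene are not independent. Width enters these shares too, since a wide peak is more likely to share a base with another. The members' peaks had a median width of 626.5 nt (PTC) and 538 nt (control), against 270 and 268 nt over all peaks. Their strongest peaks also had higher −log10 p than those of all listed genes, as given above. Shares for peaks of like width and strength are not given here. In 11 of the 12 overlapping pairs at least 55.9% of the PTC peak and 66.9% of the control peak were shared. Of the 24 ends of these pairs, 7 were at the same base, and 22, those included, differed by a multiple of 30 nt to within 1 nt. Most shifts of a limit between the lists were thus a few steps of a common grid.

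Other genes of the same pathway were taken from a list of 58 genes of homing, adhesion, interleukin 7 signalling and naive T cell identity. Of these 53 had a peak, 51 in both lists, 0 in the PTC list only and 2 in the control list only. Of all genes in either list, 79.2% were in both, 8.24% in the PTC list only and 12.5% in the control list only. Of the 16 further chemokine and lysophospholipid receptors 13 were listed, all in both lists. Of them 10 had a peak over the stop codon in both, as had 6 of the 7 genes above and 34 of the 51 pathway genes in both lists. Over all protein-coding genes in both lists this share was 48.8%. The 2 genes in the control list only, Jak3, a kinase that acts with the common cytokine receptor chain, and Stat5a, a transcription factor downstream of the interleukin 7 receptor, had weak peaks (highest −log10 p 6.69 and 6.02). Among the pathway genes in both lists whose PTC peak had an FDR too small to be listed, those with the highest fold were P2ry10, a lysophospholipid receptor (−log10 p 361 in the PTC list and 178 in the control list), Foxp1, a transcription factor of T cell quiescence (630 and 369), and Satb1, a chromatin organiser of T cells (791 and 472). The median strongest −log10 p of the listed pathway genes was 92.8 in the PTC list and 61.5 in the control list, so that high values were not particular to the 7 genes.

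Genes whose pattern over the 2 lists was most like that of a member were found by the rank of the strongest peak by FDR among genes with the same numbers of peaks. For Ccr7 they were Cd83 and Slfn2, which with other genes were tied with it at a distance of 0 percentile points because the FDR was too small to be listed. They were Selplg and Ifi47 for S1pr1 (0.00878 and 0.571 points), H2-K1 and Hspa5 for Klf2 (0.18 each), and Tsc22d3 and Atf1 for Il7r (3.75 and 6). For Cxcr4 they were A230005M16Rik and H2afx (0.359 and 0.783), for Ccr9 Gen1 and Tssk6 (1.09 and 1.39), and for Cxcr3 Phf14 and Zc3h7a (0.378 and 0.433). Fold enrichment served only to break ties, of 4 genes for Klf2 and of 2 at the distance of Ifi47. By fold these genes were from 4.79 (Tssk6) to 72.1 (Selplg) percentile points away from their member. The strongest peak of Selplg had a fold of 2.58 in the PTC list and 2.03 in the control list, against 6.45 and 5.4 for S1pr1. With 2 lists, such a likeness is a weak description and concerns the FDR rank and the peak numbers only.

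Markers of the labelled cell type were present: all 8 T cell markers, among them Cd3e, Cd4 and Cd8a, had peaks in both lists. Their strongest −log10 p ran from 11.7 (Cd3e) to 207 (Cd2) in the PTC list and from 4.74 to 141, for the same genes, in the control list. The medians were 33.5 and 24.05, below the 97.65 and 144.05 of the 4 listed B cell markers. Genes taken here as markers of other cells were present too. In both lists were 4 of 5 for B cells, 3 of 5 for myeloid cells and 3 of 4 for natural killer cells. For hepatocytes 0 of 3 were in either list. Of the natural killer genes only Eomes was strong (−log10 p 171 in the PTC list and 119 in the control list). Klrk1 (8.17 and 5.55) and Klrb1c (6.61 and 5.53) were weak, and Ncr1 had no PTC peak and a control value of 3.13. Whether the T cells themselves supplied these peaks was not tested. The B cell markers Cd79b and Ms4a1 had strongest peaks with a −log10 p of 275 and 137 in the PTC list and of 354 and 221 in the control list, and the myeloid genes Cd68 and Itgam and the B cell gene Cd79a had none. B cells also express Ccr7, S1pr1, Klf2 and Cxcr4, and the part of other cells in the peaks of these genes was not tested. In such bulk samples, fewer cells of a type and less RNA per cell cannot be told apart.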

How the data were processed

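m6A immunoprecipitates and inputs of mouse primary T cells were compared by the authors, who deposited 1 peak list per condition. BWA 0.7.12, MACS2 2.1.0 and the build GRCm39 are named, with no role, per the submitters' processing notes. The peak caller, its threshold and any pooling are not stated in the sources used here. The deposited columns are a p-value, a log10 p and a log10 FDR per peak, handled as a score because some exceed the range of a log value, and a linear fold enrichment. The authors' deposited table counts 15855 PTC and 19420 control peaks, fewer than the lines of the lists, and its filter is not stated.

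Of the peaks, 99.8% (PTC) and 99.9% (control) lay inside the gene with the same identifier in GENCODE M21. The positions are therefore read as GRCm38, count from 1, and were not converted. Each peak was placed on the transcript of its gene that shared the most bases with it, and on the main GENCODE transcript for coverage and sites. A stop codon counted as held when all its bases were in the peak. Motifs were searched on the transcript strand with Python 3.11.15. The functions returned the known answer in 500 of 500 simulated transcripts.

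The genes and lists were chosen with earlier results of these data known. All 7 genes are named, as are pathway genes in 1 list only, 3 in both lists, taken by FDR with ties broken by fold (not by p-value), and 2 genes most like each member; unnamed gene models were left out of the last choice. With 1 list per condition no test was possible. Read depth is unknown.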

Additional observations from a re-analysis of the deposited data

How the results depend on the processing

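Of 52 recomputed main values 45 stayed within the exact 95% interval of the share or within 1.5 times the count, and 7 moved. With 12 and 13 peaks these intervals are wide, so that staying within them says little about stability. No recomputed value below has the share of all peaks or genes at the same setting beside it. With a fold of at least 4, 71.4% of the members' PTC peaks and 66.7% of their control peaks were overlapped, and 5 members were in both lists. These values counted as stayed, as did 8.33% of PTC peaks with a midpoint within 100 nt of a stop codon. Of the values that moved, some did so when the fold had to reach 4 in both lists. The members' PTC peaks then numbered 7, of which 85.7% held GGACT. Of the pathway genes 31 were in both lists and 5 in the PTC list only. At equal list length, which cuts only the control list, 2 pathway genes were in the PTC list only. In a window around the midpoint of each peak, 16.7% of the members' PTC peaks and 0% of their control peaks held GGACT. The window replaced the whole peak, so that fewer bases were searched. Whether that alone accounts for the lower shares was not tested. Of 28 peak counts of single genes 19 stayed within 1.5 times and 9 moved. No paired analysis was possible because the sample numbers of the groups are all different and no pairing is stated. No sample could be left out because the lists hold no values per sample. The number of peaks per gene and the p-values depend on read depth, which is unknown.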
